A study of Homo sapiens with 7 samples.

Results

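Expression of STAT5A, STAT5B and 8 genes known as direct targets of STAT5 was examined in K562 lines made resistant to the tyrosine kinase inhibitor dasatinib. The 10 members, STAT5A, STAT5B, PIM1, PIM2, PIM3, SOCS1, SOCS2, SOCS3, CISH and OSM, were taken by symbol from the 25702 gene IDs of the deposited counts, and all 10 were found. K562 is an established chronic myeloid leukemia line that carries the BCR::ABL1 fusion. All 7 lines are K562: a drug naive control, a control grown in the vehicle DMSO, and lines grown long term in 10, 15, 25, 50 or 200 nM dasatinib (DasR). The DasR lines are stages of 1 dose escalation. RNA of each line was sequenced once, and the counts of a library summed to 21007761 without drug and 24037893 with DMSO, to 27808639, 27844799 and 20059656 at 10, 15 and 25 nM, and to 20827519 and 21588772 at 50 and 200 nM. The 10, 15 and 25 nM lines form the early stage (n = 3), the 50 and 200 nM lines the late stage (n = 2), and the drug naive and DMSO lines the controls (n = 2). These stages were set by the study from clustering of the same libraries, and lines of a stage stand as its replicates. Tests therefore compare these lines, and dose is part of the spread within a stage.

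STAT5A and STAT5B are transcription factors that wait in the cytoplasm until a kinase phosphorylates them, after which they pair, enter the nucleus and bind DNA. Janus kinases do this behind cytokine receptors, and BCR::ABL1 does it without a cytokine in chronic myeloid leukemia cells. Among the genes that active STAT5 turns on are the PIM kinases, which favor survival and growth, and CISH and the SOCS genes, whose products dampen the same signal. Transcript counts do not measure phosphorylation of STAT5.

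The label gives the cells as erythroblasts. All 14 erythroid markers examined, among them the transcription factors GATA1 and KLF1 and the fetal and embryonic globins, reached a level of 10 CPM in every line (CPM, the count of a gene relative to its library's sum). Their summed level in the controls was 4233 CPM without drug and 3842 CPM with DMSO. It was 12579, 14172 and 11009 CPM at 10, 15 and 25 nM, and 7069 and 4975 CPM at 50 and 200 nM. HBG2, a fetal globin gene, or HBZ, an embryonic one, was the most abundant of them. All 3 early stage lines were thus above the other 4 lines in this sum, most of which came from globin genes. Single markers differed from it: GATA1 was at 201 and 217 CPM in the controls, 165, 206 and 191 in the early stage and 235 and 295 in the late stage lines, and HBE1, an embryonic globin gene, was lower at 10 nM (473 CPM) than in the controls (651 and 599.7 CPM). At 200 nM this sum was nearest to its control level among the DasR lines. Among the members described next, PIM1 was nearest to the controls in that line, STAT5B and SOCS2 were under both controls and PIM2 was at its highest. The part of this sum in the member differences was not tested. In bulk RNA, fewer cells of a type and less RNA per cell cannot be told apart.

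Of the 10 members, 9 reached 10 CPM in at least 2 lines and were tested among 10452 genes by edgeR's quasi-likelihood F test, Benjamini-Hochberg adjusted, at the study's false discovery rate (FDR) of 0.005. In the early stage lines STAT5A, STAT5B, PIM1 and SOCS2 fell against the controls and no member rose, which is 4 of 9, where 10.1% of all tested genes fell and 7.92% rose. In the late stage lines STAT5B fell and no other member passed, where 4.56% of all genes fell and 3.42% rose. The median log2 fold change of the 9 members was -0.87 in the early and -0.72 in the late stage lines, while the medians over all tested genes were 0.003 and -0.004. Both comparisons share the 2 control lines. At a looser FDR of 0.05, 5 members were lower and 1 higher in the early stage lines, where 24.0% of all genes were lower and 22.6% higher. In the late stage lines 3 were lower and 1 higher, where 17.6% and 16.2% of all genes were.

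**Figure D1:**
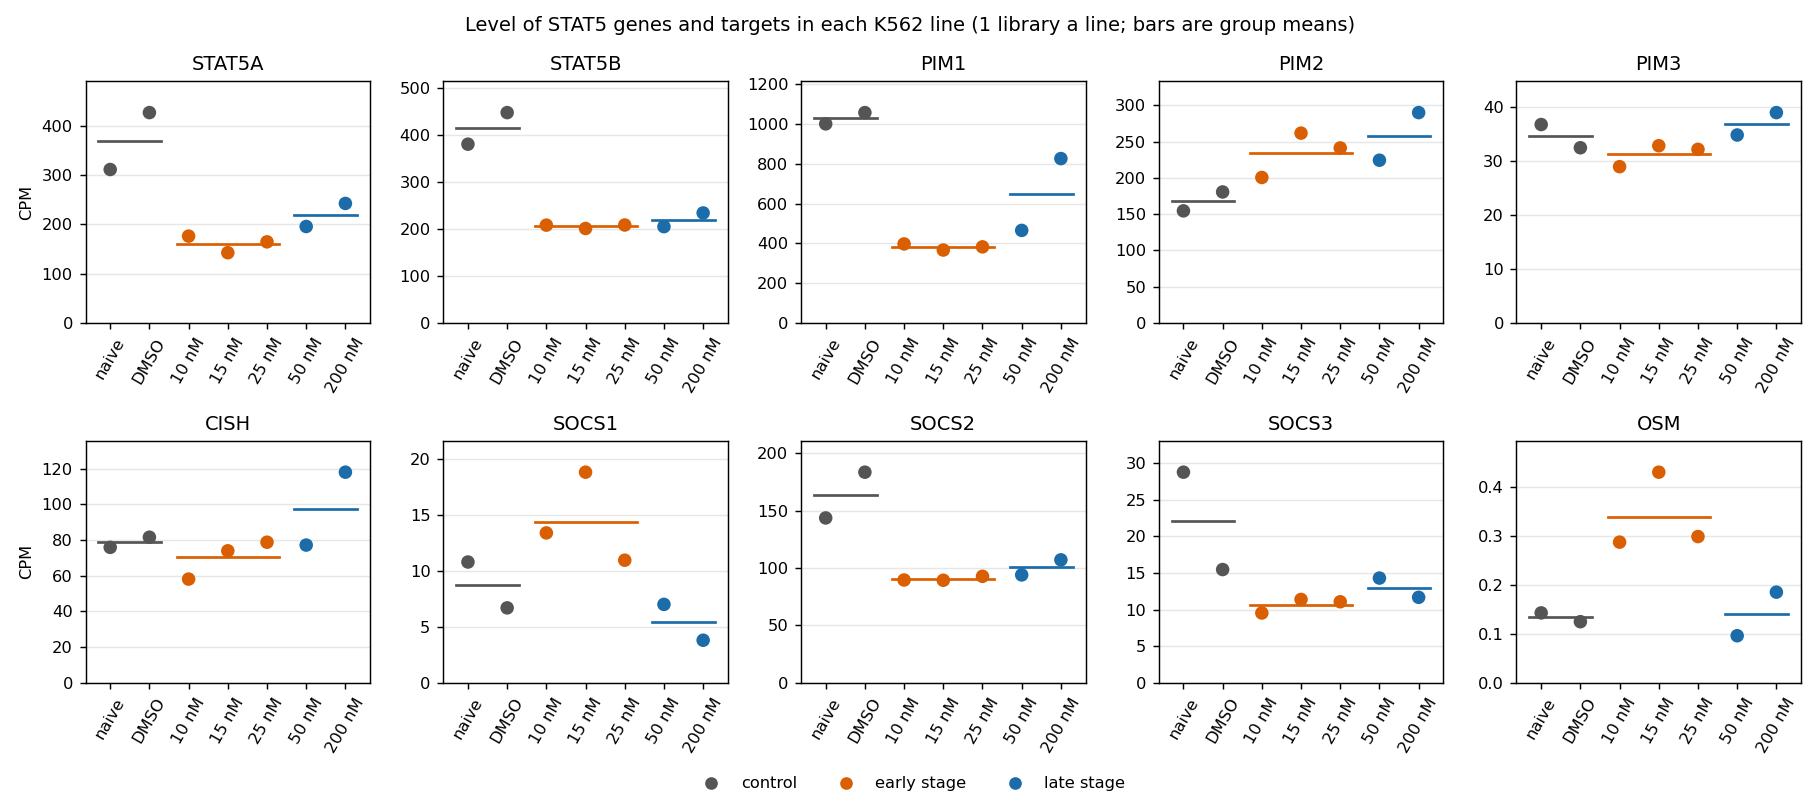
Level of each member in CPM (vertical axis, from 0, its own scale in each panel) in the 7 K562 lines (horizontal axis), 1 point a library, colored by stage, with a bar at each group mean. All 5 DasR points lie below both controls for STAT5A, STAT5B, PIM1, SOCS2 and SOCS3, and above both for PIM2.

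STAT5A (gene ID 6776) and STAT5B (gene ID 6777) lie side by side on chromosome 17 of hg19 (GRCh37), at positions 40439565 to 40463961 on the plus strand and 40351194 to 40440651 on the minus strand. STAT5A was at 311 CPM in drug naive and 426 CPM in DMSO cells, at 176, 143 and 165 in the 10, 15 and 25 nM lines, and at 196 and 242 in the 50 and 200 nM lines. The DasR lines did not overlap the controls, and the 200 nM line was nearest to them. STAT5A averaged 369 ± 81.5 CPM (SD, n = 2) in the controls, 161 ± 17.1 (n = 3) in the early stage and 219 ± 33.1 (n = 2) in the late stage. It fell by 1.21 on the log2 scale in the early stage lines (SE 0.16, FDR 0.00131 by edgeR's quasi-likelihood F test, Benjamini-Hochberg adjusted), a level 2.31-fold lower. The same test gave a log2 fold change of -0.77 in the late stage lines (SE 0.17, FDR 0.0148), which did not pass 0.005. The early stage call was lost without the drug naive (FDR 0.00547), DMSO (0.0088) or 25 nM line (0.00699) in the edgeR fit.

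STAT5B was at 380.2 and 447 CPM in the drug naive and DMSO lines, at 208, 201 and 208 in the early stage lines in order of dose, and at 205 and 234 at 50 and 200 nM. The 5 DasR lines were close to one another and all well below both controls. Mean levels were 414 ± 47.5 CPM (SD, n = 2), 206 ± 4.2 (n = 3) and 219.5 ± 20.6 (n = 2) in control, early and late stage. STAT5B fell by 1.02 (SE 0.09, FDR 0.000412) in the early and fell by 0.93 (SE 0.10, FDR 0.00141) in the late stage lines by edgeR's test with Benjamini-Hochberg adjustment, and was the only member past the threshold in both. Its early stage call held whichever single line was left out, with FDR values up to 0.00352 by edgeR. Its late stage call by edgeR was lost without the drug naive (FDR 0.00879), DMSO (0.00793), 25 nM (0.00541) or 50 nM line (0.00672), and in a fit of only the control and late stage lines (0.00788).

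Counted together, STAT5A and STAT5B were at 691 and 874 CPM in the drug naive and DMSO lines, at 384, 344 and 373 CPM in the early stage lines and at 401 and 476 CPM in the late stage lines. On the scale of CPM per kilobase of gene length, the level of STAT5A over that of STAT5B stayed between 0.84 at 15 nM and 1.23 at 200 nM. Both genes were thus at like levels per length in every line and were lower together. The exons of both genes share 415 bases of chromosome 17 on opposite strands, and 6.12% of the 75-base windows of STAT5A (the read length) also occur in STAT5B. Whether the counting used strand is not given in the sources used here, so reads from the shared bases may be counted for either gene.

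**Figure D2:**
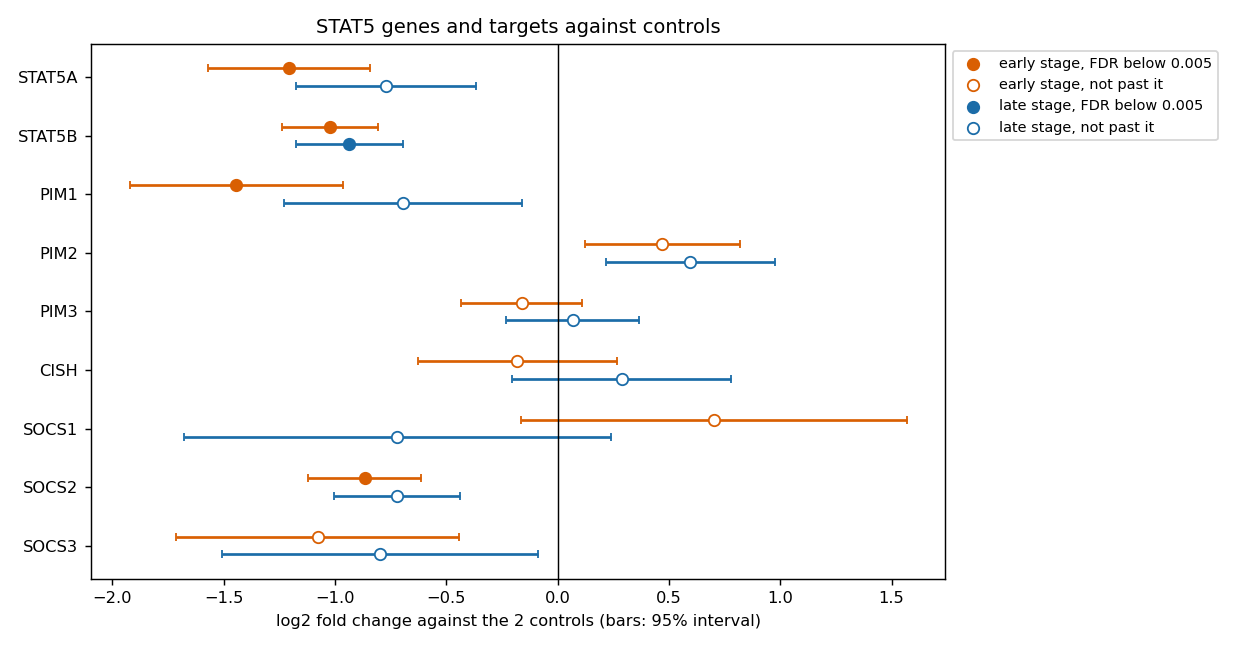
Log2 fold change against the 2 controls (horizontal axis) of the 9 tested members (vertical axis) in early stage (orange) and late stage (blue) lines, with 95% intervals from the edgeR fit. Filled points passed an FDR of 0.005: STAT5A, STAT5B, PIM1 and SOCS2 in the early stage and STAT5B in the late stage.

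The PIM genes encode serine/threonine kinases that are active once made, so that transcript level is a main point of their control. PIM1 (gene ID 5292, chromosome 6, 37137928 to 37143204, plus strand) was at 1001 and 1057 CPM in the drug naive and DMSO lines. It was at 398, 367 and 383 CPM at 10, 15 and 25 nM, at 466 CPM at 50 nM and at 826 CPM at 200 nM. The early stage lines lay close together, far below the controls, while the 200 nM line was nearer to the controls than to any other DasR line. Mean levels were 1029 ± 40.1 CPM (SD, n = 2), 382 ± 15.4 (n = 3) and 646 ± 255 (n = 2) in control, early and late stage. PIM1 fell by 1.44 (SE 0.20, FDR 0.00188) in the early stage by edgeR's quasi-likelihood F test, Benjamini-Hochberg adjusted, a level 2.72-fold lower and the largest fall among the members. This call needed most of the lines, since FDR values by edgeR were 0.0162 without the drug naive, 0.0125 without the DMSO, 0.00587 without the 10 nM, 0.00711 without the 15 nM and 0.00925 without the 25 nM line. Against the controls the late stage log2 fold change was -0.70 (SE 0.23, FDR 0.0511). The lone 50 nM line stood at -1.16 with an FDR of 0.00258 and the lone 200 nM line at -0.35 with an FDR of 0.0543 by edgeR, where the spread of a lone line was assumed to be that of the other groups.

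PIM2 (gene ID 11040, X chromosome, 48770459 to 48776301, minus strand) went the other way, at 155 and 181 CPM in the controls, 201, 262 and 241 in the early stage and 224 and 289.9 in the late stage lines. Each of the 5 DasR lines was above both controls, with the 200 nM line highest. The log2 fold changes were 0.47 (SE 0.15, FDR 0.0357) in the early and 0.60 (SE 0.16, FDR 0.0274) in the late stage lines by edgeR with Benjamini-Hochberg adjustment, above the FDR of 0.005. PIM3 (gene ID 415116, chromosome 22, 50354416 to 50357720, plus strand) was at 36.7 and 32.4 CPM in the controls, 28.9, 32.8 and 32.2 in the early stage and 34.8 and 39.0 in the late stage lines. Its groups overlapped, and the 95% interval of its log2 fold change ran from -0.43 to 0.11 in the early and from -0.23 to 0.37 in the late stage. Differences inside these bounds were not detectable with these lines.

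The makeup of the PIM transcripts therefore differed between lines. PIM1 held 84.0% (95% Wilson interval 83.5 to 84.4) of PIM counts in drug naive cells and 83.2% (82.8 to 83.6) with DMSO. Its share was 63.4% (62.7 to 64.1), 55.5% (54.8 to 56.2) and 58.3% (57.5 to 59.2) in the 10, 15 and 25 nM lines. At 50 and 200 nM it was 64.2% (63.5 to 65.0) and 71.5% (71.0 to 72.1). These intervals cover counting error only. On the scale of CPM per kilobase, the level of PIM1 was 5.23 and 4.73 times that of PIM2 in the controls, 1.60, 1.13 and 1.28 times in the early stage lines and 1.68 and 2.30 times at 50 and 200 nM. Total PIM counts were 1192 and 1270.4 CPM in the controls, 627, 661 and 656 in the early stage, 725 at 50 nM and 1155 at 200 nM. The 200 nM line was thus close to the controls in total PIM transcripts, with a larger share from PIM2.

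The CISH and SOCS proteins bind activated receptors, Janus kinases or both, and close a negative feedback loop on STAT signaling. SOCS2 (gene ID 8835, chromosome 12, 93963590 to 93977263, plus strand) was at 144 and 183 CPM in the drug naive and DMSO lines, 89.5, 89.2 and 92.7 in the early stage lines and 93.9 and 107 in the late stage lines. All DasR lines were below both controls, and the early stage lines lay close to one another. SOCS2 fell by 0.87 (SE 0.11, FDR 0.00115) in the early stage lines by edgeR's test with Benjamini-Hochberg adjustment, a level 1.82-fold lower. Its late stage log2 fold change was -0.72 (SE 0.12), with an FDR by edgeR of 0.00535, just over the threshold. The early stage call was lost without the DMSO (FDR 0.00676) or the 25 nM line (0.00643) in the edgeR fit. Its exons share 277 bases with the antisense gene SOCS2-AS1, so reads from these shared bases cannot be assigned to either gene if strand was not used.

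SOCS3 (gene ID 9021, chromosome 17, 76352859 to 76356158, minus strand) was at 28.8 CPM in drug naive cells and 15.5 CPM with DMSO, at 9.53, 11.4 and 11.1 in the early stage lines and at 14.3 and 11.7 in the late stage lines. The DasR lines were again below both controls, but the controls differed by more than all other lines did. The log2 fold changes were -1.08 (SE 0.27, FDR 0.0155) and -0.80 (SE 0.30, FDR 0.0789) in early and late stage by edgeR with Benjamini-Hochberg adjustment. The early stage value rested on the control used, at -0.52 with an FDR of 0.117 without the drug naive line and -1.48 with an FDR of 0.00493 without the DMSO line, both by edgeR.

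SOCS1 (gene ID 8651, chromosome 16, 11348274 to 11350061, minus strand) was at 10.8 and 6.70 CPM in the drug naive and DMSO lines, 13.4, 18.9 and 11.0 in the early stage lines and 7.01 and 3.80 in the late stage lines. Every early stage line was above, and the 200 nM line was below, every other line. Only the early stage and drug naive lines reached 10 CPM, so SOCS1 entered the tested set through the group where it is high. Its log2 fold changes were 0.70 (SE 0.37, FDR 0.158) in the early and -0.72 (SE 0.41, FDR 0.209) in the late stage lines by edgeR with Benjamini-Hochberg adjustment. Leaving out 1 line moved the early stage value of SOCS1 between 0.37 (without DMSO) and 1.12 (without drug naive), with 0.46 without 15 nM, and the late stage value between -1.24 (without 50 nM) and -0.30 (without drug naive), with -0.34 without 200 nM. SOCS1 and SOCS3 were the least expressed of the tested members, with 82 to 525 and 222 to 605 counts in a library.

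CISH (gene ID 1154, chromosome 3, 50643920 to 50649205, minus strand) was at 75.9 and 81.6 CPM in the controls, 58.1, 74.0 and 78.8 in the early stage lines in order of dose, 77.2 at 50 nM and 118 at 200 nM. The 50 nM line lay between the controls, and the 200 nM line stood alone above the rest. The 95% interval of its log2 fold change ran from -0.63 to 0.27 in the early and from -0.20 to 0.78 in the late stage lines. Its exons share 218 bases with MAPKAPK3 on the opposite strand.

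STAT5 dimers bind the palindrome TTCNNNGAA, and CISH is a textbook target of STAT5. The sequence before its start is shown because CISH alone among the members with a promoter window holds the motif. RefSeq promoter windows (build GRCh38.p14, 250 bases before to 50 after each start) matched 8 of the 10 members, with 11 windows in all. SOCS2 and OSM had no window and were not searched. The motif, which reads the same on both strands, was in 1 of the 11 windows. In that of CISH it occurred 4 times without overlap, where 7.66% of all 35116 windows held it at least once, 0.456% at least 2 times and 0.0199% at least 4 times. The 250 bases before the CISH start, at chr3:50611775-50612024 on the minus strand, are given 5′ to 3′ with the fixed letters of each match in capitals.
CISH: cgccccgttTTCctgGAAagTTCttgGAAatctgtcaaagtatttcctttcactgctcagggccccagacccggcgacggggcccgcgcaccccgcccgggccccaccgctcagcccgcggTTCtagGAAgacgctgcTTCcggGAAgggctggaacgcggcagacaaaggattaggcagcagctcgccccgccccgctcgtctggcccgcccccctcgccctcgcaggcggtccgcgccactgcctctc
Counted from the start, the 4 matches span positions -241 to -233, -230 to -222, -129 to -121 and -112 to -104. A match of letters is no measure of binding, and no binding was measured in these lines.

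OSM encodes oncostatin M, a cytokine of the interleukin-6 family, and lies on chromosome 22 at 30658818 to 30662840 on the minus strand. It had 3 counts in each control, 8, 12 and 6 in the early stage lines and 2 and 4 in the late stage lines, too few for the test. Pooled by group, these are 0.133 CPM (exact 95% Poisson interval 0.0489 to 0.290), 0.343 (0.224 to 0.503) and 0.141 (0.0519 to 0.308). The early stage ratio to the controls was 2.58 (1.04 to 7.66), an interval that covers counting error only. OSM was therefore near the detection limit, taken as 3 counts, in all 7 lines.

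Late and early stage lines were compared directly, which tests whether the 2 stages differ. By edgeR's quasi-likelihood F test, Benjamini-Hochberg adjusted, no member and no other gene passed an FDR of 0.005 (0.0% in either direction), nor by limma voom. DESeq2 called 1135 genes, PIM1 and SOCS1 among them. Since SOCS1 entered the tested set through the early stage lines, where it is high, its lower late stage level here is no separate support. At an unadjusted p under 0.05, STAT5A, PIM1 and CISH were higher in the late stage and SOCS1 lower, where 16.4% of all genes were higher and 16.6% lower. The log2 difference was 0.75 for PIM1 (SE 0.20, FDR 0.0544), -1.42 for SOCS1 (SE 0.38, FDR 0.0527), 0.44 for STAT5A (SE 0.16, FDR 0.105) and 0.47 for CISH (SE 0.19, FDR 0.137) by edgeR. Both late stage lines were above all 3 early stage lines in STAT5A, PIM1, PIM3, SOCS2 and SOCS3, where 26.8% of all genes were, and below them in SOCS1, where 26.4% were. The PIM1 difference was 1.10 (FDR 0.00311 by edgeR) without the 50 nM line and 0.29 (FDR 0.196) without the 200 nM line, where the lone late stage line was again assumed to vary like the other groups. In the same way the CISH difference was 0.73 (FDR 0.0275 by edgeR) without the 50 nM line and 0.14 (FDR 0.712) without the 200 nM line, and that of STAT5A 0.57 and 0.28. For STAT5B the difference was 0.086, with a 95% interval from -0.13 to 0.30, and for SOCS2 it was 0.14, from -0.11 to 0.40.

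Within the late stage, the 200 nM line differed from the 50 nM line by 1.5-fold or more in 3 of the 9 tested members, with no replicate to test it. PIM1 was 1.78 times and CISH 1.53 times as high at 200 nM, where 3.38% of all genes were that much higher. SOCS1 was at 0.542 times its 50 nM level, where 5.83% of all genes were that much lower. Between the controls, SOCS1 and SOCS3 were at 0.62 and 0.537 times their drug naive levels in the DMSO line, and 4.46% of all genes differed that much. Low SOCS1 and SOCS3 values thus varied between the untreated lines too. Over all 7 lines, 5 of the 9 members had all DasR lines below both controls, where 23.7% of all genes did, and PIM2 was above in all 5, where 25.1% of all genes were.

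The members did not share 1 pattern. On log2 CPM centered over the 7 lines, the profiles of STAT5B and SOCS2 were most alike, with a root mean square difference of 0.09. STAT5A differed from STAT5B by 0.17 and from SOCS2 by 0.18, and PIM1 from STAT5A by 0.22. PIM1 and SOCS1 were farthest apart, at 1.19. Per length, PIM1 was the most abundant member with a mean of 237 CPM per kilobase over the 7 lines, ranked 204 of the 10452 tested genes, followed by PIM2 at 101, STAT5A at 55.1, STAT5B at 52.8 and SOCS2 at 51.7. CISH was at 35.5, PIM3 at 14.2, SOCS1 at 8.41 and SOCS3 at 5.34 CPM per kilobase.

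Among all tested genes, those with the profile most like STAT5A were FAH, SAPCD1 and SLC7A5, at root mean square differences of 0.06, 0.07 and 0.10 over the 7 lines. For STAT5B they were OGFOD2, AARSD1 and LYRM1, at 0.05, 0.06 and 0.07. NFKB2, TSPO and JDP2 were nearest to PIM1, each at 0.12, and NFKB2 was at 42.4 and 48.6 CPM in the controls, 13.7, 15.5 and 15.5 in the early stage, 18.6 at 50 nM and 35.1 at 200 nM. SETD4, FARSA and ASNA1 were nearest to PIM2, and RPARP-AS1, FRA10AC1 and ATXN2L to SOCS2. MICB, FDPS and ZNF512 were nearest to PIM3, MSTO2P, SREBF1 and MFSD10 to CISH, MFI2, PALM and GATS to SOCS1, and HSD17B7, KRT19 and IER3 to SOCS3. These values describe 7 points that share their libraries.

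Transcripts of BCR and ABL1, the genes joined in the fusion, were counted as well. Their counts do not measure the kinase activity of BCR::ABL1. The paper assayed the fusion transcript itself by RT-PCR and the kinase activity through phosphorylated CrkL. BCR was at 195 and 179.6 CPM in the controls, 1379, 1097 and 934 in the early stage and 757 and 463 in the late stage lines, and ABL1 at 349 and 319.5, at 2557, 2021 and 1686, and at 1390 and 918. Reads of either gene come from the fusion and from the unrearranged copies. Every DasR line was above both controls in BCR and ABL1, highest at 10 nM and lowest at 200 nM among DasR lines. STAT5A, STAT5B, PIM1 and SOCS2 were below the controls in the same lines. A link between these differences was not tested. BCR rose by 2.58 (SE 0.26, FDR 0.000597) and ABL1 by 2.63 (SE 0.25, FDR 0.000479) on the log2 scale in the early stage lines by edgeR's test with Benjamini-Hochberg adjustment. In the late stage lines BCR rose by 1.68 (FDR 0.00455) and ABL1 by 1.77 (FDR 0.0032) in the same edgeR fit. The early stage calls were lost without either control, with FDR values by edgeR up to 0.00876 and 0.00732. Late stage calls were lost without any 1 line but the 200 nM line for BCR (FDR up to 0.0325) and but the 10 and 200 nM lines for ABL1 (up to 0.0252). Both late stage calls also ended in a fit of only the control and late stage lines (FDR by edgeR 0.00872 and 0.00563). GUSB, the reference gene of the study's PCR assays, fell by 0.51 (SE 0.08, FDR 0.00314) in the early stage by edgeR, a call lost without any 1 of the control or early stage lines (FDR up to 0.0265).

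**Figure D3:**
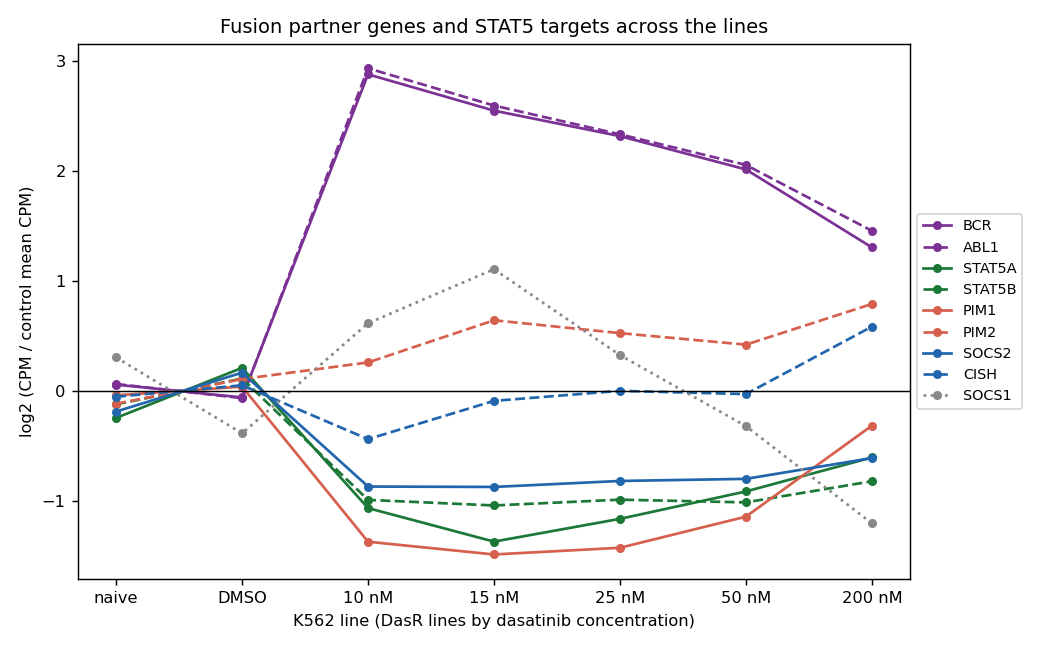
Log2 ratio of the CPM in each line to the mean of the 2 controls (vertical axis) for BCR, ABL1 and 7 members across the K562 lines (horizontal axis), where line segments only join the points of 1 gene. BCR and ABL1 lie above 0 in all DasR lines, while STAT5A, STAT5B, PIM1 and SOCS2 lie below it and PIM1 is nearest to it at 200 nM.

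The wider pathway was described by 87 listed genes, of which 62 were tested. In the early stage lines 7 of the 62 rose and 7 fell, with a median log2 fold change of -0.06. In the late stage lines 2 rose and 2 fell, and the median was 0.09. These shares were near those of all genes called in each stage. Of 16 other genes known to be regulated by STAT5, 13 were tested, and in both stages 1 rose (TFRC) and 1 fell (VEGFA). Of all genes, 7.92% rose and 10.1% fell in the early stage, and 3.42% and 4.56% in the late stage. The median log2 fold change of the 13 was -0.19 in the early and 0.01 in the late stage. VEGFA, an angiogenic growth factor, was at 823.5 and 549 CPM in the controls, 116, 76.4 and 104 in the early stage and 204 and 252 in the late stage lines. It fell by 2.82 (SE 0.24, FDR 0.000313) and fell by 1.62 (SE 0.26, FDR 0.00498) in early and late stage by edgeR with Benjamini-Hochberg adjustment. TFRC, the transferrin receptor, also counted here as an erythroid marker, rose by 1.13 (SE 0.12, FDR 0.000677) and by 0.85 (SE 0.13, FDR 0.00373) by edgeR, from 594 and 485 CPM in the controls to 1220, 1143 and 1218 CPM at 10, 15 and 25 nM. The early stage calls of both held without any 1 line. The late stage call of VEGFA was lost without any 1 line but the 15 nM line (FDR by edgeR up to 0.0283), and that of TFRC without any 1 of the 7 lines (up to 0.0153).

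Of 5 other STAT genes, 4 were tested, and STAT2 and STAT3 fell in the early stage, where 10.1% of all genes fell. STAT3 was at 328 and 289.6 CPM in the controls, 120.2, 97.4 and 126 in the early stage and 211 and 279 in the late stage lines. The early stage lines stood apart, and the 200 nM line was close to the controls. STAT3 fell by 1.45 (SE 0.16, FDR 0.000761) in the early stage by edgeR with Benjamini-Hochberg adjustment, and its late stage value was -0.36 (FDR 0.154). Late and early stage differed by 1.09 in STAT3 (SE 0.16, FDR 0.0167 by edgeR), which did not pass 0.005. Without the drug naive line the early stage FDR by edgeR was 0.00924. STAT2 fell by 0.62 (SE 0.08, FDR 0.00164) by edgeR, a call lost without any 1 control or early stage line (FDR up to 0.0155).

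STAT3 lies next to STAT5A on 17q21, and 7 of 10 listed neighbors of STAT5A and STAT5B were tested. No neighbor passed an FDR of 0.005 by edgeR or limma voom, while DESeq2 called 3 lower in the early stage. By edgeR 5 of the 7 were lower in the early and 2 in the late stage at an unadjusted p under 0.05, where 27.6% and 23.7% of all genes were, and the median log2 fold changes of the 7 were -0.37 and -0.20. GHDC, on the side of STAT5B, was at -0.76 (SE 0.17, FDR 0.00925) in the early stage, and CAVIN1, beyond STAT3, at -0.45 (SE 0.09, FDR 0.00743), both by edgeR. STAT5B, STAT5A and STAT3 were the only tested genes of this list and its center past the threshold by edgeR.

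**Figure D4:**
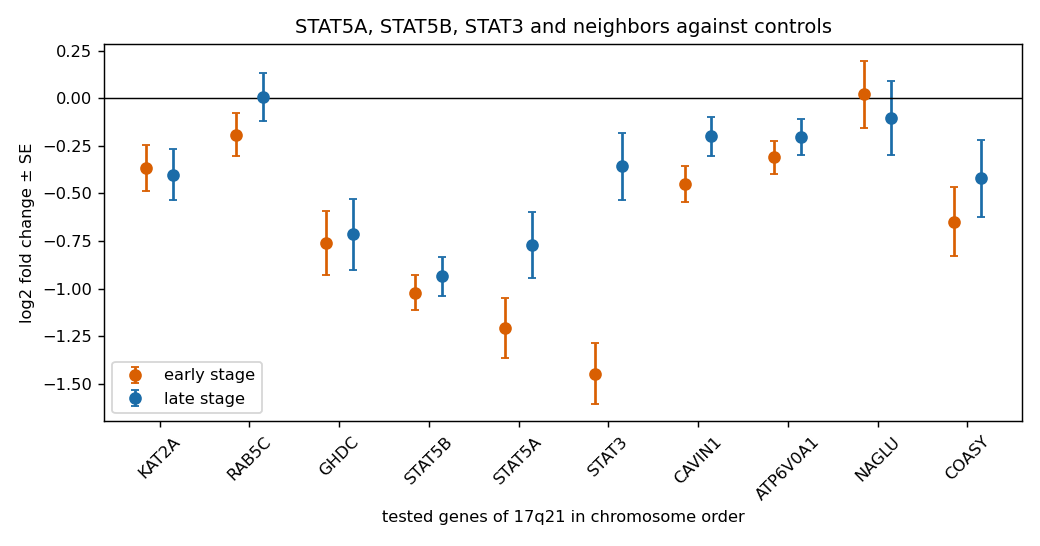
Log2 fold change against the 2 controls, with its standard error (vertical axis), of the 10 tested genes of 17q21 in chromosome order (horizontal axis) in early stage (orange) and late stage (blue) lines. The early stage values of STAT5B, STAT5A and STAT3 lie below -1, and those of the other 7 genes above -0.8.

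Of 11 Janus kinases and adaptors of the fusion, 10 were tested. In the early stage 2 fell and in the late stage 1, where 10.1% and 4.56% of all genes fell. GAB2, an adaptor that links BCR::ABL1 to downstream kinases, was at 378 and 326 CPM in the controls, 76.8, 74.0 and 70.4 in the early stage and 78.4 and 82.1 in the late stage lines. All DasR lines lay in a narrow range, far below the controls. GAB2 fell by 2.27 (SE 0.10, FDR 7.76e-05) and fell by 2.16 (SE 0.12, FDR 0.000219) by edgeR with Benjamini-Hochberg adjustment, and both calls held without any 1 line. JAK1 fell by 0.77 (SE 0.11, FDR 0.00171) in the early stage, with an FDR by edgeR of 0.0152 without the drug naive, 0.00634 without the 15 nM and 0.00919 without the 25 nM line.

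Of 15 cytokine receptors that signal through STAT5, 3 were tested, and 1 rose in the early stage, where 7.92% of all genes rose. EPOR, the erythropoietin receptor, rose by 0.99 (SE 0.15, FDR 0.00229) in the early stage by edgeR, from 20.3 and 18.9 CPM in the controls to 35.3, 46.6 and 36.5. Its call was lost without the drug naive (FDR 0.0161), DMSO (0.0185) or 25 nM line (0.00785). Of 7 receptors and ligands related to oncostatin M, 2 were tested, and 1 rose in the early stage, beside the same 7.92% of all genes. LIFR, a receptor chain for leukemia inhibitory factor and oncostatin M, rose by 2.63 (SE 0.43, FDR 0.00319) by edgeR, from 17.1 and 27.96 CPM to 134, 163 and 126.5. That call was lost without any 1 control or early stage line (FDR up to 0.0337).

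Of 15 further inhibitors of the pathway, 14 were tested, and 2 rose and 2 fell in the early stage, where 7.92% of all genes rose and 10.1% fell. SOCS7 fell by 1.65 (SE 0.18, FDR 0.000775) and SH2B3, an adaptor that restrains Janus kinase signaling, by 1.06 (SE 0.19, FDR 0.00434) by edgeR with Benjamini-Hochberg adjustment. SOCS7 was at 18.6 and 16.0 CPM in the controls, 5.8, 5.8 and 5.1 in the early stage and 7.4 and 8.9 in the late stage lines. Only the controls thus reached 10 CPM, so SOCS7 entered the tested set through the group where it is high. SH2B3 was at 175 and 208 CPM in the controls, 94.0, 74.99 and 109.6 in the early stage and 208 and 290.5 in the late stage lines. Its late stage lines were at or above the controls and differed from the early stage by 1.42 (SE 0.19, FDR 0.0167 by edgeR). SOCS4 rose by 0.78 (SE 0.13, FDR 0.00292) and SOCS5 by 0.82 (SE 0.14, FDR 0.00334) by edgeR. The SOCS7 call was lost without the drug naive or 25 nM line (FDR by edgeR up to 0.0109) and that of SOCS4 without the drug naive, DMSO, 15 or 25 nM line (up to 0.0221). Those of SH2B3 (up to 0.0301) and SOCS5 (up to 0.0246) were lost without any 1 control or early stage line.

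Of 11 genes listed as PIM kinase substrates, 9 were tested. In the early stage 2 rose and in the late stage 1, where 7.92% and 3.42% of all genes rose. HSPB1, a small heat shock protein, rose by 0.86 (SE 0.13, FDR 0.00213) and AKT1S1, an inhibitor of mTORC1, by 0.52 (SE 0.09, FDR 0.00449) in the early stage by edgeR. CBX3, a heterochromatin protein, rose by 0.68 (SE 0.11, FDR 0.00444) in the late stage by edgeR. Leaving out 1 control or early stage line ended the calls of HSPB1 (FDR by edgeR up to 0.0223, but not without the 25 nM line) and AKT1S1 (up to 0.0337). That of CBX3 was lost without any 1 line but the 15 nM line (up to 0.0311). The 7 coactivators and corepressors of STAT5 were all tested by edgeR and none passed 0.005 in either stage. At an unadjusted p under 0.05, 2 of the 7 were lower in the early stage and 1 lower and 1 higher in the late stage, beside 26.6% (higher) and 27.6% (lower) of all genes in the former and 22.3% and 23.7% in the latter. DESeq2 called 1 (lower, early stage) and limma voom 0.

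The markers of megakaryocytes, of monocytes and granulocytes, and of fibroblasts were at low levels beside the erythroid ones. The 7 megakaryocyte markers summed to 79.4 and 63.5 CPM in the controls, 22.6, 16.5 and 22.0 in the early stage and 68.3 and 107 in the late stage lines, mostly ITGA2B, an integrin of platelets, except at 15 nM, while PF4, PPBP, GP9 and GP1BB were at or near 0. ITGA2B fell by 2.44 (SE 0.37, FDR 0.00234) in the early stage by edgeR with Benjamini-Hochberg adjustment. Of the 14 erythroid markers, all tested, HBA1, HBA2, HBG1, EPOR and TFRC (5 of 14) rose in the early stage, where 7.92% of all genes rose. TFRC alone of them rose in the late stage, where 3.42% of all genes rose. Reads of the near-identical globin copies may be split between those copies. The 8 markers of monocytes and granulocytes summed to at most 103 CPM, nearly all LYZ, with MPO and ELANE at or near 0, and the 5 of fibroblasts to at most 19.6 CPM, mostly COL1A1 or COL1A2. CD3D, a T cell gene named here after its values were seen, was at 16.3 and 8.15 CPM in the controls, 3.60, 2.73 and 8.47 in the early stage and 22.6 and 29.6 in the late stage lines, while the T cell gene CD2 and the B cell gene MS4A1 were at or near 0. Its early stage lines overlapped the controls and lay below both late stage lines. The log2 fold change of CD3D was -1.35 (SE 0.50, FDR 0.0604) in the early stage and the late stage differed from the early stage by 2.41 (SE 0.50, FDR 0.027) by edgeR, neither past 0.005. Only the drug naive and late stage lines reached 10 CPM. CD3D thus entered the tested set through the late stage, where it is high, and its difference between stages is no separate support. The parts of these markers in the member differences were not tested.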

How the data were processed

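RNA of 7 K562 lines was sequenced as paired reads from a directional library kit. The authors used STAR for alignment to hg19, and their deposited table holds raw, unscaled counts per gene. The submitters' processing notes also name FastQC, featureCounts and edgeR, and the counting settings are not given in the sources used here. Gene lengths and symbols came from the deposited tables, which also hold the authors' own comparisons (fold change, mean abundance, p and FDR), and these were not used. Genes with at least 10 CPM in 2 libraries were kept. TMM scaling and edgeR 4.0.16 in R 4.3.3 were used (glmQLFit and glmQLFTest), 1 coefficient per group, all 7 libraries in the fit, with Benjamini-Hochberg adjustment over 10452 genes. The functions were tested on simulated data. The labels do not say that lines are separate cultures of a group, and p-values measure only the spread between lines. Lines of a group differed by a chi-square per degree of freedom of 21.1 to 70.1.

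The members and lists were chosen with earlier results of these data known. Genes were named if they were members, fusion partners or GUSB, if they passed an FDR of 0.005 in a list (at most 6 a list), or if they were among the 3 tested genes nearest to a member in log2 CPM profile (prior count 2). Positions are from an annotation of GRCh37, and promoters from RefSeq on GRCh38.p14. Alternatives were DESeq2 1.42.0, limma 3.58.1 voom, other scalings and filters, an FDR of 0.05, a fit of only the groups compared, and leaving out each line. The summed level of 1 marker list is not reported here.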

Additional observations from a re-analysis of the deposited data

How the results depend on the processing

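With 1 library a line and 2 or 3 lines a group, few calls held without every line. Left out 1 at a time, the lines gave 208 to 2066 genes called in the early stage (main value 1881), 33 to 596 in the late stage (834) and 0 to 198 between stages (0, with 198 without the 50 nM line). Members called ranged from 1 to 4 in the early stage (4), from 0 to 2 in the late stage (1) and from 0 to 1 between stages (0). The lowest early stage counts came without the drug naive line for genes and without the 25 nM line for members, where only STAT5B was left. DESeq2's Wald test called 3548 genes in the early stage, 2503 in the late stage and 1135 between stages, with 5 members in the late stage and 2 between stages. An FDR of 0.05 gave 4865, 3542 and 1328 genes, and 4 members in the late stage. With no limit on low counts, 1287 genes were called in the late stage and 295 between stages. Fitted on only the 2 groups compared, the late stage had 257 genes and 0 members, STAT5B being at an FDR of 0.00788 by edgeR, and the late stage calls of BCR (0.00872), ABL1 (0.00563), VEGFA (0.00834), TFRC (0.0129) and CBX3 (0.011) ended too. Leaving out lines, the differences that changed sign were all uncalled and near 0. In the late stage PIM3 ranged from -0.046 (without DMSO; -0.0046 without 200 nM) to 0.19 and CISH from -0.040 (without 200 nM) to 0.55. Between stages AKT1S1 ranged from -0.12 to 0.024 (without 50 nM), STAT5B from -0.0027 to 0.17 and PIM2 from -0.060 to 0.29, both lowest without 200 nM. Apart from fits that drop a line, 203 of the members' values under other settings kept direction and side of the threshold, 12 came to pass it and 1 lost it. All 12 came from DESeq2's Wald test or from the FDR of 0.05. That looser FDR uses the same fit, so it could not change a direction. The 1 lost was STAT5B in the late stage, fitted on only the 2 groups compared. Some calls of other genes ended under another scaling or filter: VEGFA in the late stage (FDR 0.00512 with DESeq2 size factors and 0.00619 with a limit of 1 CPM), SH2B3 in the early stage (0.00513 with a limit of 1 CPM) and AKT1S1 in the early stage (0.00606 by library size only, and 0.00553 and 0.00551 with a limit of 1 CPM and none), all by edgeR. Over the scalings and the 3 comparisons, the median log2 fold change of all genes lay between -0.0053 and 0.018. No paired analysis was possible because the lines carry no replicate numbers.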
